A study of Mus musculus with 66 samples.

Results

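The brains of wild-type mice of 2 inbred strains, C57BL/6J and DBA/1J, were compared gene by gene. The comparison used the 6 libraries, of 66 in the series, whose labels gave a wild-type genotype and a sagittal brain hemisection as the tissue: 3 C57BL/6J mice and 3 DBA/1J mice. The wider study examined mice that carry mutations of *Rorb*, a nuclear receptor gene, and both wild-type strains served there as controls. The C57BL/6J mice were 2 females and 1 male aged 8.0 weeks, and the DBA/1J mice were 2 males and 1 female aged 8.4 to 8.9 weeks. No mouse carried a transgene or received a treatment by the labels. Further libraries of the series were used for single checks. Brains of 3 *Rorb* h5 mice, kept on DBA/1J, and 3 *Rorb* h1 mice, kept on C57BL/6J, gave the same strain difference in animals that the wild-type comparison did not use, and spinal cords of the 6 wild-type mice gave it in a second tissue. The h1 mice were aged 8.0 weeks and the h5 mice 8.4 to 8.7 weeks, with both sexes in each group. Brains of *Rorb* h2, h3 and h4 mice of both sexes, aged 7.9 to 9.6 weeks, entered alternative fits only. The h2 and h3 mutations arose on an albino C57BL/6 background and h4 on a congenic *Il1r1* background.

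Inbred strains are lines in which brothers and sisters were mated until nearly every locus became identical on both chromosomes, so that all mice of a strain share 1 genome. C57BL/6J is the strain from which the mouse reference genome was built. DBA/1J is an old strain of another lineage, known for its dilute brown coat and for its susceptibility to collagen-induced arthritis. Strains differ by single bases, by gained or lost copies of genes, by insertions of retroelements and by processed pseudogenes, which are reverse-transcribed copies of a messenger RNA pasted elsewhere in the genome.

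Total counts were between 37618144 and 54446911 in the C57BL/6J libraries and between 35588279 and 38604922 in the DBA/1J libraries. A single identifier without a gene symbol held 3.04% to 8.51% of the counts in C57BL/6J and 8.38% to 10.9% in DBA/1J. The library labelled DBA/1J replicate 1 stood apart from the others in the region of brain it held. *Gabra6*, which encodes a GABA-A receptor subunit of cerebellar granule cells, was at 125, 102 and 88.3 CPM (counts scaled to a common library size with TMM factors) in the C57BL/6J libraries and at 0.154, 102 and 96.6 CPM in the DBA/1J libraries. *Cbln3*, a synaptic organizer gene of the same cells, was at 248, 238 and 167 CPM in C57BL/6J and at 0.540, 218 and 238 CPM in DBA/1J, and *Pcp2* of Purkinje cells followed the same course with 0.0514 CPM in that library. The defining markers of the cerebellum were thus near 0 in that library alone, and in the same library 9 hypothalamic markers summed to 51.5 CPM against 21.6 to 29.0 CPM in the other 5. The results below hold all 6 libraries, and the calls that depended on this library are given beside them.

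Across 17368 genes tested, 1952 differed between the strains at an adjusted p below 0.05, which is 11.2% of the genes. Fewer were higher in DBA/1J (702 genes, 4.04%) than lower (1250 genes, 7.2%), so 64.0% of the differing genes were lower in DBA/1J. The differences were mostly small. The median absolute log2 fold change of the differing genes was 0.577, and 987 of them (50.6%) differed by less than 1.5-fold, while 590 (3.4% of the genes tested) differed by more than 2-fold. Among all genes tested the 3 libraries of 1 strain lay wholly above the 3 of the other in 30.4%, and they did so for every gene that was called. The first principal component of the 500 most variable genes held 78.5% of their variance and separated the strains. Without DBA/1J replicate 1 there were 1709 calls, 515 higher and 1194 lower, and 1547 of the 1952 genes (79.3%) were called in both.

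**Figure D1:**
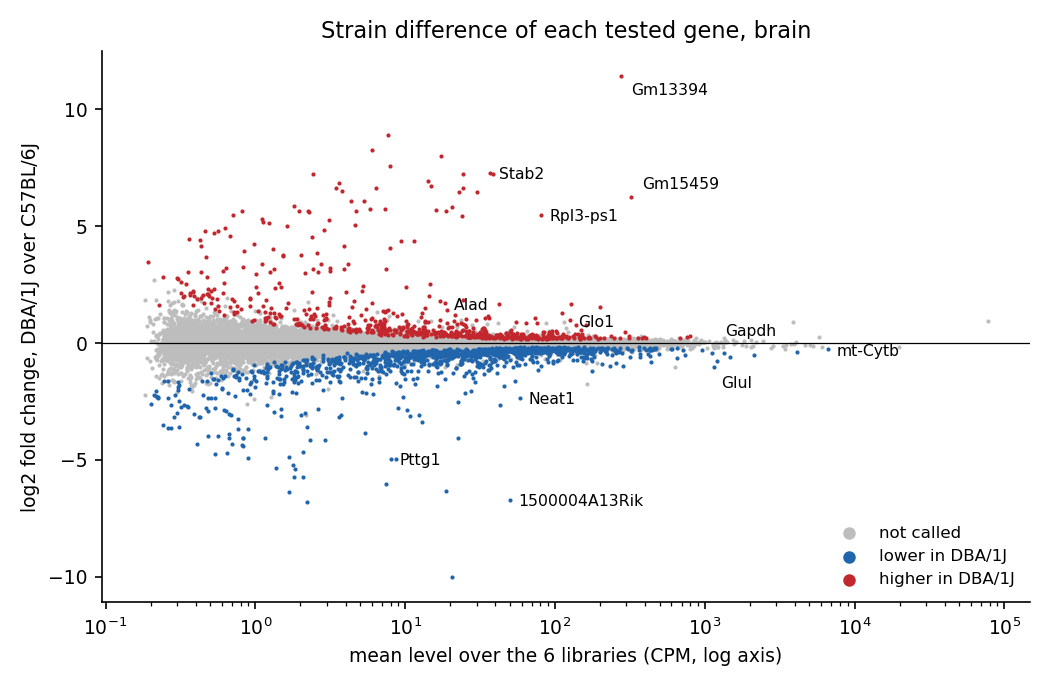
Mean level of each gene over the 6 brain libraries (x axis, CPM, log scale) against its log2 fold change, DBA/1J minus C57BL/6J (y axis), for 17287 genes. Coloured points are the called genes among them, and genes with 3 counts or fewer in total over the libraries of 1 strain are left out. Most called genes lie close to 0, and a separate cloud of genes high in DBA/1J extends far above it.

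Reads of both strains were aligned to the C57BL/6J genome, so a lower count of a DBA/1J gene and a poorer alignment of DBA/1J reads cannot be told apart in these files. The animals of the 2 strains also carried different identifier series, and strain and colony cannot be told apart. The replicates carried separate animal identifiers, and the p-values measure the spread between these animals.

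The genes that gained most in DBA/1J were copies of other genes. Of 346 processed pseudogenes tested, 84 were higher in DBA/1J and 9 lower (26.9% called), and all of these 93 differed by more than 2-fold, while 10.9% of 14897 protein-coding genes were called. Every one of the 84 matched a coding gene over at least 80% of its length, with a median identity of 99.3% and a lowest of 92.2%. Such a match was not particular to them, as 212 processed pseudogenes that were not called also matched, with a median identity of 99.5%. The median level of the 84 was 0.122 CPM in C57BL/6J and 4.92 CPM in DBA/1J, and their levels together came to 38.1 CPM and 2203 CPM. The deposited counts were made by RSEM, which divides a read that fits several genes among them, so the gene a read came from is uncertain for such families. The 3 pairs below are shown because they gave the largest counts or differ at few bases. Each sequence is 60 bases of the coding sequence and its copy, from the transcripts of the GRCm39 annotation, with the bases that differ in capitals.
Hspa8: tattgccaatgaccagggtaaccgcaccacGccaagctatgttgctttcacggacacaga
Gm15459: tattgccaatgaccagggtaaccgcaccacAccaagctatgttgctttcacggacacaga
Gapdh: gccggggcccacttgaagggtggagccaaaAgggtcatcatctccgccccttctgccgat
Gm13394: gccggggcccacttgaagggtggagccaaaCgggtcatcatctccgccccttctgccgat
Rnps1: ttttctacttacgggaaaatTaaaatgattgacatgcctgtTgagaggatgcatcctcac
Rnps1-ps: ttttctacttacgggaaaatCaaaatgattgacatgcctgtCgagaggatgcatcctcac

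*Hspa8* encodes the constitutive heat-shock cognate protein HSC70 and lies at chr9:40801276-40805202 (GRCm38), and its copy *Gm15459* lies at chr5:5781529-5783633. The aligned 1941 bases of the pair held 5 mismatches. *Hspa8* was at 1748, 1715 and 1897 CPM in C57BL/6J and at 1217, 1304 and 994 CPM in DBA/1J, a log2 fold change of -0.61 ± 0.10 (SE, adjusted p = 0.00290). *Gm15459* was at 7.74, 8.11 and 9.34 CPM in C57BL/6J and at 635, 711 and 572 CPM in DBA/1J. The 2 strains did not overlap for either gene, and the directions were opposite. When parent and copies were summed before the fit, the family was at 1757, 1727 and 1907 CPM in C57BL/6J and at 1856, 2019 and 1569 CPM in DBA/1J, and the strains overlapped (log2 0.01 ± 0.09, adjusted p = 0.943).

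The same opposite change was seen in *Gapdh*, the glycolytic enzyme often used to normalize quantitative PCR, at chr6:125161852-125166467. It fell by 0.75 ± 0.06 on the log2 scale (adjusted p = 2.28e-05), from a mean of 1504 CPM to 895 CPM, while *Gm13394*, at chr2:28933429-28934627 and with 1 mismatch in 1000 aligned bases, went from 0.199 CPM to 554 CPM. The sum of *Gapdh* and its 11 tested copies was 1530 ± 48.6 CPM (SD, n = 3) in C57BL/6J and 1459 ± 29.5 CPM in DBA/1J, a log2 difference of -0.07 ± 0.05 that did not pass the test (adjusted p = 0.493). *Rpl3* of the large ribosomal subunit went from 329 to 184 CPM and *Rpl3-ps1* from 3.55 to 159 CPM, with a summed log2 difference of 0.05 (adjusted p = 0.686). For *Rnps1*, a splicing factor gene at chr17:24414646-24425898, the level went from 81.1 to 26.4 CPM while *Rnps1-ps* at chr6:7981814-7983438 went from 0.493 to 48.0 CPM, and the sum differed by -0.13 (adjusted p = 0.145). *Hmga1*, a chromatin architecture gene, and *Tpm3*, a tropomyosin gene, were lower beside higher *Hmga1b* and *Tpm3-rs7*, with summed differences of 0.02 (adjusted p = 0.893) and -0.19 (adjusted p = 0.0731).

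**Figure D2:**
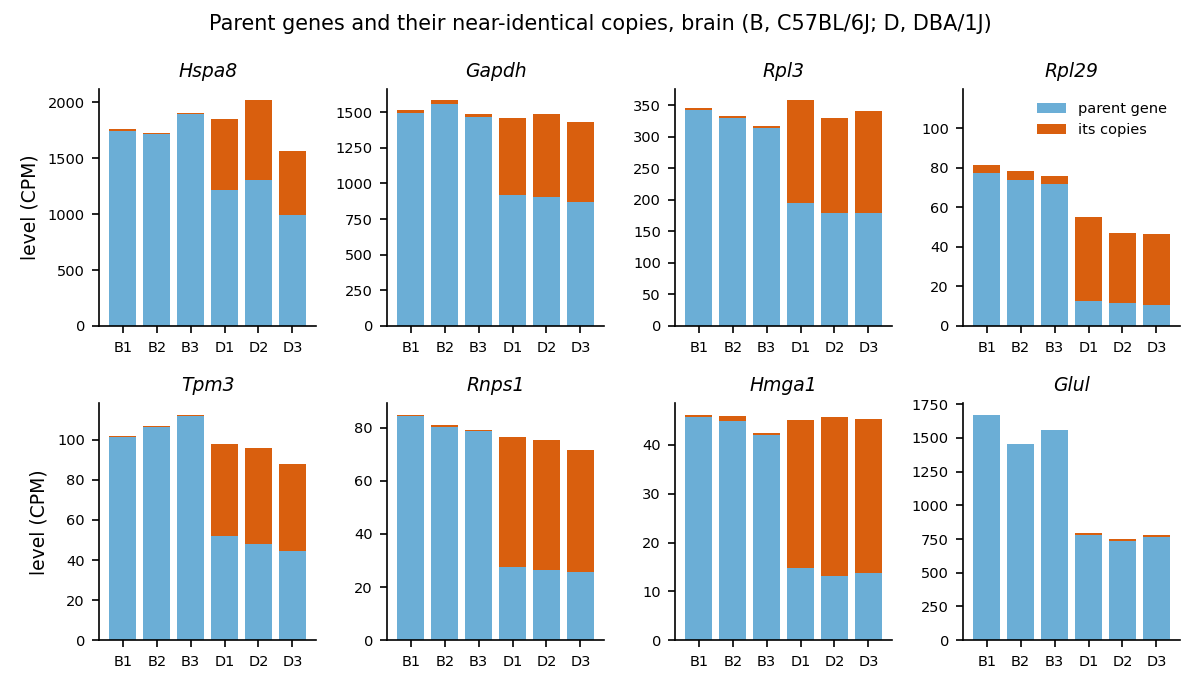
Stacked bars of CPM for 8 coding genes and their copies in each brain library (B1 to B3, C57BL/6J; D1 to D3, DBA/1J). In *Hspa8*, *Gapdh*, *Rpl3*, *Tpm3*, *Rnps1* and *Hmga1* the copy takes a large part of the DBA/1J bars and the whole bars are of similar height, while the bars of *Rpl29* and *Glul* stay shorter in DBA/1J.

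Not every family behaved so. In 71 families a copy was called higher, and the parent was called lower in 39 of them (54.9%, against 7.2% over all genes) and higher in 3 (against 4.04% over all genes). These families were chosen for a higher copy, and RSEM divides shared reads between copy and parent, so the parents' shares are not independent of that choice. After summing, 22 of the 39 were still lower and 17 were no longer called, and the median log2 difference of the 71 families moved from -0.337 for the parents to -0.102 for the sums. The sums held processed pseudogenes and genes named among the largest increases, so other copies annotated as protein-coding were left out. *Rps18-ps6*, at 0.018 CPM in C57BL/6J and 28.6 CPM in DBA/1J, was not in the sum of *Rps18*, which counts among the 22. *Rpl29*, a ribosomal protein gene, was at 77.4, 74.1 and 71.6 CPM in C57BL/6J and at 12.9, 11.6 and 10.6 CPM in DBA/1J, and its copy *Gm8210* had 0 counts in C57BL/6J and a mean of 34.8 CPM in DBA/1J, at least 427-fold above the floor of 3 counts per library. The sum of *Rpl29* and its copies was still lower (log2 -0.66 ± 0.07, adjusted p = 3.94e-04). *Rpsa*, the laminin receptor and ribosomal protein gene, also stayed lower after summing (-0.41, adjusted p = 0.00232), as did *Rbpj*, the DNA-binding partner of Notch (-0.69, adjusted p = 6.7e-05), and *Tdg*, the thymine DNA glycosylase gene (-1.20).

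Glutamine synthetase was lower in DBA/1J by a wide margin at a high level. *Glul*, the enzyme with which astrocytes turn glutamate into glutamine, was at 1673, 1454 and 1560 CPM in C57BL/6J and at 780, 738 and 768 CPM in DBA/1J (log2 -1.04 ± 0.07, adjusted p = 7.81e-06). The groups did not overlap, and summing with its copy *Glns-ps1*, which rose from 0.128 to 12.6 CPM, left the difference at -1.01 (adjusted p = 1.8e-05). *Kif5a*, a neuronal kinesin heavy chain, was at 2636, 2478 and 2437 CPM in C57BL/6J and at 1793, 1708 and 1771 CPM in DBA/1J (-0.52 ± 0.06, adjusted p = 3.22e-04). *Mobp*, a myelin protein gene (-0.41), *Gpm6b*, a proteolipid gene (-0.28), *Snhg11*, a neuronal non-coding RNA (-0.44), and mitochondrial *mt-Nd5* (-0.39) and *mt-Cytb* (-0.26) were lower too. With *Hspa8* and *Gapdh* above they made up 9 of the 10 called genes of highest count, and the other, the imprinted gene *Peg3*, was higher (0.29, adjusted p = 0.0340). *Mobp* lost its call without DBA/1J replicate 2 (adjusted p = 0.0546), *mt-Cytb* without DBA/1J replicate 2 or 3, and *Peg3* was called in 2 of 6 fits that left out 1 library.

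Several genes had almost no counts in DBA/1J brain, and for them too poorer alignment of DBA/1J reads cannot be told apart from less RNA. *S100b* encodes a calcium-binding protein of astrocytes that is a common glial marker, and lies at chr10:76253836-76261319 (GRCm38). It was at 153, 138 and 119 CPM in C57BL/6J, and no count was assigned to it in any DBA/1J library, so its assigned counts were at least 1580-fold lower there (adjusted p = 3.69e-08). Per length it had a mean of 209 TPM (the unit of RSEM that is scaled for transcript length) in C57BL/6J. Of the 3 tested neighbours on either side, *Dip2a* was lower and *Prmt2* was slightly higher (1.14-fold, adjusted p = 0.0464, called in 0 of 6 fits that left out 1 library), while *Gm867*, *Zfp280b*, *Pcnt* and *Ybey* were not called. *Dip2a*, the next gene after *S100b*, was at 113, 108 and 101 CPM in C57BL/6J and at 53.5, 52.4 and 58.5 CPM in DBA/1J (-0.97 ± 0.06, adjusted p = 8.02e-06).

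In all, 24 called genes had at most 3 counts in every DBA/1J library and at least 1 CPM in C57BL/6J, 9 of them protein-coding, and 12 had no count in DBA/1J at all. *Gvin1*, a very large interferon-inducible GTPase, was at 12.6, 8.84 and 10.6 CPM in C57BL/6J and at 0 in the DBA/1J libraries (at least 124-fold). *Trim12a*, a TRIM family gene, was at a mean of 3.40 CPM (at least 39.4-fold). *Mndal*, an interferon-inducible nuclear protein, was at 1.24 CPM (at least 14.3-fold), and *H2-Eb1*, the beta chain of the MHC class II E molecule, at 1.37 CPM (at least 15.9-fold). Another 24 called genes, 6 of them protein-coding, had at most 3 counts in every C57BL/6J library and at least 1 CPM in DBA/1J. Beside processed pseudogenes such as *Rpl15-ps6* (at least 188-fold) and *Rps18-ps6*, a protein-coding gene by its annotation despite the symbol (28.6 CPM, at least 351-fold), they held *Zfp990*, a zinc-finger gene at 3.65 CPM (at least 44.7-fold), *Ccr6*, a chemokine receptor at 1.32 CPM (at least 16.2-fold) and *Myh6*, the cardiac alpha myosin heavy chain at 1.21 CPM (at least 14.9-fold).

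Among called genes with a mean of at least 5 CPM over the 6 libraries, leaving out those whose symbol is a Gm or Rik number or marks a pseudogene (-ps), *Stab2* had the largest increase in DBA/1J. *Stab2*, a scavenger receptor for hyaluronan best known from liver sinusoids, was at 0.516, 0.421 and 0.467 CPM in C57BL/6J and at 60.3, 83.2 and 77.8 CPM in DBA/1J (7.30 ± 0.17, adjusted p = 4.15e-09). The 3 DBA/1J libraries were all far above the 3 C57BL/6J libraries. *Rps3a2* (5.67), *Amd2*, an S-adenosylmethionine decarboxylase gene (4.38), *Eif3j2* (2.53) and *Tpm3-rs7* and *Hmga1b* from the families above were genes with a close relative elsewhere in the genome. *Tuba1c*, an alpha tubulin gene, rose from 2.63, 4.21 and 2.75 CPM to 20.2, 15.5 and 15.7 CPM (2.42 ± 0.18), and *Pla2g4e*, a cytosolic phospholipase A2, from 5.68, 6.07 and 5.55 CPM to 21.2, 24.2 and 24.5 CPM (2.02 ± 0.09). *Cfap54*, a gene of motile cilia, was at 7.96, 6.83 and 7.90 CPM in C57BL/6J and at 28.6, 26.0 and 25.5 CPM in DBA/1J (1.82 ± 0.09). *Hspa1b*, an inducible HSP70 gene, was the least regular member of this group, with 8.36, 9.22 and 13.9 CPM against 33.7, 63.9 and 16.3 CPM (1.84 ± 0.41, adjusted p = 0.0186), and lost its call without C57BL/6J replicate 1 (adjusted p = 0.0773) or replicate 2 (0.0896).

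The largest decrease among such genes with counts in both strains was that of *Pttg1*, securin, which holds sister chromatids together until anaphase. It was at 14.9, 15.9 and 16.2 CPM in C57BL/6J and at 0.566, 0.358 and 0.576 CPM in DBA/1J (-4.96 ± 0.15, adjusted p = 4.42e-08). *Myoc*, the myocilin gene whose human counterpart is known from glaucoma, was at 16.2, 17.9 and 16.3 CPM and at 0.772, 0.413 and 0.432 CPM (-4.94 ± 0.18). *Myo7a*, the unconventional myosin of hair cells and retinal pigment epithelium, was at 22.9, 22.3 and 21.2 CPM and at 2.60, 2.48 and 2.91 CPM (-3.06 ± 0.10). In each of these 3 genes every C57BL/6J library was far above every DBA/1J library. *Fcrl2*, the Fc receptor-like gene of microglia also called *Fcrls*, was at 13.8, 15.1 and 18.03 CPM and at 2.96, 1.04 and 2.91 CPM (-2.76 ± 0.29). *Neat1*, the long non-coding RNA that scaffolds paraspeckles, was at 105, 89.9 and 97.7 CPM in C57BL/6J and at 18.2, 19.9 and 18.9 CPM in DBA/1J (-2.36 ± 0.07, adjusted p = 3.22e-08). *Mid1*, an X-linked ubiquitin ligase gene at the edge of the pseudoautosomal region, was lower by 2.30 ± 0.22, and *Erdr1y*, from that region, by 3.36 ± 0.22. Of the 10 genes with the smallest p, 9 were higher in DBA/1J, among them *Rpl3-ps1*, *Rps3a2* and *Gm15459*, and the other was the non-coding *1500004A13Rik*, which went from 99.4, 96.8 and 100.2 CPM to 0.746, 0.935 and 1.15 CPM (-6.71 ± 0.11).

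**Figure D3:**
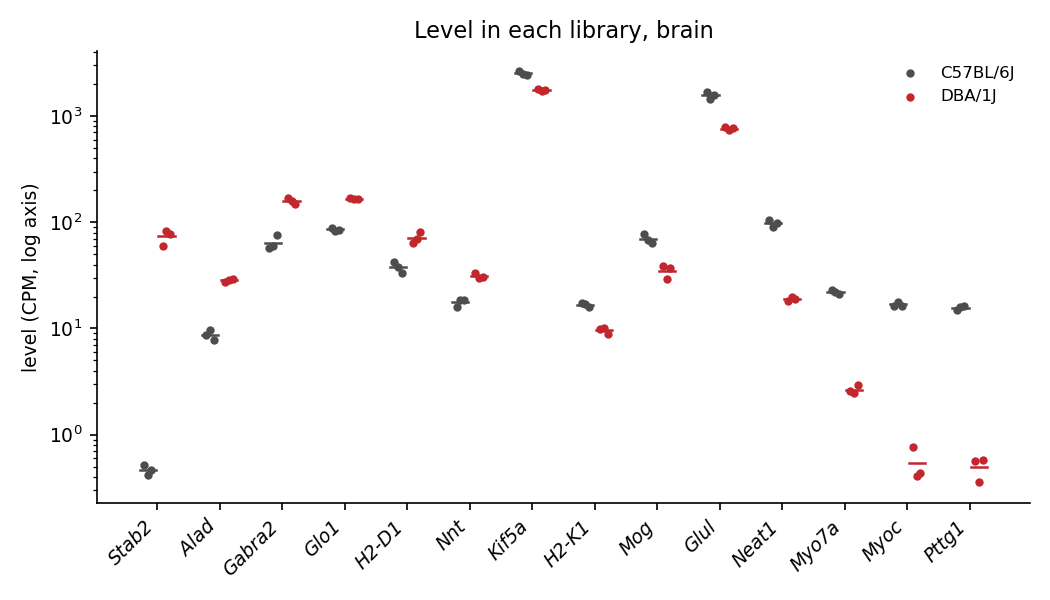
Level of 14 genes in each of the 6 brain libraries (CPM, log axis), with 1 dot per library and a line at each strain's mean. The 14 were picked from the called genes, in all of which the strains do not overlap (30.4% of all genes tested do not overlap). They run from *Stab2*, at about 0.5 CPM in C57BL/6J and 60.3 to 83.2 CPM in DBA/1J, to *Kif5a*, at 2437 to 2636 CPM against 1708 to 1793 CPM.

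For *Hba-a2*, an adult alpha globin gene, the libraries held 41.6, 45.6 and 40.1 CPM in C57BL/6J and 5.20, 0.743 and 1.58 CPM in DBA/1J (-4.06 ± 0.46, adjusted p = 3.91e-04). Its near-identical partner *Hba-a1* went the other way in 2 of 3 DBA/1J libraries and was not called. Both genes together summed to 105 ± 7.47 CPM (SD, n = 3) in C57BL/6J and 116 ± 78.3 CPM in DBA/1J, so the strains overlapped in total alpha globin. *Rorb*, the gene of the wider study, was not called between the wild-type strains, at 54.5 ± 5.1 CPM and 57.9 ± 7.8 CPM (0.09, adjusted p = 0.643).

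Counts and length-scaled levels did not always move together. Of 1552 called genes above 1 CPM in both strains, 29 had a log2 ratio of TPM that differed from that of the counts by more than 0.5, and 20 had the opposite direction. *Dip2a* was among the 20. Its counts were lower in DBA/1J, whereas its mean TPM were 39.9 in C57BL/6J and 42.3 in DBA/1J, and the mean transcript length that RSEM estimated for it was 5321 bases in C57BL/6J and 2606 bases in DBA/1J. *Tceanc2*, a gene related to elongation factors, went from 18.1 to 2.48 CPM (-2.87) with an estimated length of 3319 and 835 bases, and from 11.2 to 7.61 TPM. *Soat1*, which esterifies cholesterol, fell by 0.61 in counts, with lengths of 5914 and 3387 bases, and was at 17.0 and 19.2 TPM. *Bloc1s6*, a gene of lysosome-related organelles, was the opposite case, with higher counts (0.43) and lower TPM (28.3 and 21.8) at lengths of 1543 and 2443 bases.

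Genes at which DBA strains are known to differ from C57BL/6J were read as a check of the labels. These 14 genes were chosen for that knowledge, 13 were tested, and 5 were higher and 2 lower in DBA/1J (53.8% called, against 11.2% over all genes), with a median log2 fold change of 0.788 against 0.012 over all genes. Without DBA/1J replicate 1, 5 were higher and 1 lower. *Gabra2*, a GABA-A receptor subunit gene with a C57BL/6J-specific intronic deletion that lowers its expression, was at 56.97, 60.2 and 76.0 CPM in C57BL/6J and at 170, 158 and 148 CPM in DBA/1J (1.297 ± 0.10, adjusted p = 3.63e-05). *Glo1*, glyoxalase 1, for which a duplication segregates among strains, was at 88.8, 82.8 and 84.9 CPM and at 169, 167 and 166 CPM (0.97 ± 0.05, adjusted p = 1.31e-06), and *Dnah8*, an axonemal dynein gene nearby, was higher by 2.21 ± 0.19. *Nnt*, the mitochondrial transhydrogenase in which C57BL/6J carries a deletion, was at 16.1, 18.7 and 18.4 CPM and at 33.3, 30.0 and 30.5 CPM (0.82 ± 0.08). *Alad*, an enzyme of haem synthesis for which a gene duplication is known in DBA mice, was at 8.66, 9.60 and 7.87 CPM and at 27.3, 28.3 and 29.4 CPM (1.70 ± 0.09), and its neighbour *Hdhd3* was higher by the same log2 value (1.70 ± 0.14).

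*Myo5a*, the myosin V gene of the dilute coat colour, was lower by 0.22 (adjusted p = 0.0489) and was called in 1 of 6 fits that left out 1 library. *Tyrp1*, the gene of the brown coat colour, was 1.18 on the log2 scale with adjusted p = 0.0534, and *Gpnmb*, mutated in the related DBA/2J strain, -0.89 with adjusted p = 0.0616. The 3 genes of a block on chromosome 19 that varies in copy number, *Ide*, *Fgfbp3* and *Btaf1*, were not called.

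Genes of the major histocompatibility complex differed in both directions. MHC class I molecules present peptides from inside the cell, and 21 of the listed class I and loading genes were tested, of which 2 were higher and 4 lower (28.6% called, against 11.2% over all genes, median -0.11). Without DBA/1J replicate 1, 2 were higher and 5 lower, with a median of -0.187. *H2-K1* was at 17.5, 16.9 and 15.9 CPM in C57BL/6J and at 9.93, 10.1 and 8.95 CPM in DBA/1J (-0.80 ± 0.09), and *B2m*, the shared light chain, was lower by 0.71 ± 0.07. *H2-D1* was opposite, at 41.9, 38.1 and 33.5 CPM and at 63.8, 70.3 and 80.6 CPM (0.92 ± 0.10, adjusted p = 3.11e-04). *H2-T22* (-0.79) and *H2-T23* (-0.68) were lower and *H2-T24* was higher (1.26). These genes are alike in sequence and vary between strains at many bases, so the division of reads among them is uncertain. In class II, which presents peptides from outside the cell, *H2-Eb1* and *H2-DMb1* (-1.91 ± 0.37) were lower among 8 tested (25.0%, against 7.2% lower over all genes) and none was higher. Their median was -0.058, and without DBA/1J replicate 1 it was -0.25, with 3 genes lower.

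The interferon-stimulated genes were called in both directions, and more of them had negative than positive values. Of 39 tested, 2 were higher and 5 lower (17.9% called, against 11.2% over all genes), with a median of -0.21. The log2 fold change was negative in 27 and positive in 12. Without DBA/1J replicate 1, 2 were higher and 6 lower, 31 were negative and the median was -0.228. *Gbp7*, a guanylate-binding protein (-1.45 ± 0.16), *Igtp* (-1.24 ± 0.15) and *Irgm2* (-1.23 ± 0.20), immunity-related GTPases, and *Ifi203* of the interferon-inducible p200 family (-1.52 ± 0.25) were lower, beside *Mndal*. *Ifit3*, an antiviral RNA-binding protein gene, was higher by 0.78 and lost its call without C57BL/6J replicate 2 (adjusted p = 0.116), C57BL/6J replicate 3 (0.0998) or DBA/1J replicate 3 (0.0736). *Xaf1*, a pro-apoptotic gene, was higher in counts, at 3.48, 2.99 and 2.84 CPM and at 8.05, 6.44 and 6.88 CPM (1.21 ± 0.14), but not per length, with 8.88 TPM in C57BL/6J and 7.56 TPM in DBA/1J. Of 25 complement genes *C2*, *C3* and *Cd59a* were higher and none was lower (12% called, near the 11.2% over all genes, median 0.059), and each of the 3 was called in at most 2 of 6 fits that left out 1 library. Without DBA/1J replicate 1, 0 complement genes were called and the median turned to -0.032. For *C3* the TPM were 1.22 and 1.27.

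Transmitter receptors and ion channels changed in few members. Among 21 GABA-A and glycine receptor subunits *Gabra2* was the single member called higher. Among 25 glutamate receptor genes *Grin2b*, the NMDA receptor subunit of the forebrain, was at 722, 888 and 980 CPM in C57BL/6J and at 623, 640 and 568 CPM in DBA/1J (-0.50 ± 0.10, adjusted p = 0.0129, and 0.0565 without C57BL/6J replicate 2). *Gria1*, an AMPA receptor subunit, was at 489, 499 and 489 CPM and at 386, 414 and 404 CPM (-0.30 ± 0.05, adjusted p = 0.00592). *Grin2d* was higher by 0.41 (3 of 6 fits). Of 49 neuropeptide and peptide receptor genes 4 were lower (8.16%, near the 7.2% lower over all genes) and none was higher, namely *Oprd1*, the delta opioid receptor (-0.62 ± 0.12), *Sstr3*, a somatostatin receptor of primary cilia (-0.47 ± 0.08), *Ntsr2*, a neurotensin receptor (-0.33 ± 0.07), and *Vipr2*, the VPAC2 receptor (-0.83 ± 0.21, called in 4 of 6 fits). The median over the 49 genes was 0.157, and 0.099 without DBA/1J replicate 1.

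Among 29 voltage-gated channel genes *Cacna1e*, the pore subunit of R-type calcium channels, was at 452, 500 and 509 CPM in C57BL/6J and at 360, 376 and 329 CPM in DBA/1J (-0.45 ± 0.07, adjusted p = 0.00264). *Cacna1c* (-0.26), *Cacnb4* (-0.33), *Scn3b* (0.32) and *Cacna1h* (0.28) were also called (17.2% of the list in all, against 11.2% over all genes), each in at most 2 of 6 fits that left out 1 library, and without DBA/1J replicate 1 no channel gene was higher and 1 was lower.

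Chaperones, folding factors and stress response genes of the endoplasmic reticulum leaned towards lower levels in DBA/1J. Of 28 tested, 6 were lower and none was higher (21.4% called, against 11.2% over all genes), and 25 had a negative log2 fold change, with a median of -0.157. *Pdia4*, a protein disulfide isomerase, was at 55.7, 45.7 and 63.0 CPM in C57BL/6J and at 36.8, 36.0 and 32.8 CPM in DBA/1J (-0.64 ± 0.11, adjusted p = 0.00419). *Dnajc3*, a co-chaperone of BiP, was at 82.2, 76.6 and 93.4 CPM and at 52.3, 60.4 and 57.8 CPM (-0.57 ± 0.08, adjusted p = 0.00165). *Dnajb11*, another co-chaperone (-0.31), *Selenos* (-0.37) and *Sel1l* (-0.24), which take part in the degradation of misfolded proteins, and *Atf4* (-0.32), a transcription factor of the stress response, were also lower, in 2, 4, 1 and 4 of 6 fits that left out 1 library, and without DBA/1J replicate 1 there were 4 calls in place of 6.

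A list of 15 glucocorticoid-related genes held induced genes and the corticosteroid receptor genes *Nr3c1* and *Nr3c2*. Of these 15, 3 were higher (20%, against 4.04% over all genes) and none lower. *Sgk1*, a serum- and glucocorticoid-regulated kinase, was at 46.3, 58.3 and 57.2 CPM in C57BL/6J and at 87.2, 120.5 and 85.4 CPM in DBA/1J (0.86 ± 0.14, adjusted p = 0.00294). *Pdk4*, which restrains glucose oxidation, was higher by 0.70 ± 0.09, and *Nr3c2*, the mineralocorticoid receptor, by 0.24 (2 of 6 fits, and not without DBA/1J replicate 1, when 2 of the 15 were higher). Among 20 immediate early genes only *Jund* was called (0.35 ± 0.08, adjusted p = 0.0618 without DBA/1J replicate 2), and the median over the 20 was 0.351 with all libraries and 0.179 without DBA/1J replicate 1. *Egr4* was at 5.07 and 10.1 CPM (adjusted p = 0.0909). None of 20 clock genes was called.

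The enzymes of glutathione and glyoxalase metabolism were called in 5 of 32 (15.6%, against 11.2% over all genes). Beside *Glo1*, *Gpx3*, the secreted glutathione peroxidase, was at 12.6, 11.3 and 10.6 CPM in C57BL/6J and at 30.6, 18.6 and 19.5 CPM in DBA/1J (1.00 ± 0.18, adjusted p = 0.00570), and *Gstz1* was higher by 0.47 ± 0.09. Both subunits of glutamate-cysteine ligase, the first step of glutathione synthesis, were lower. *Gclm* was at 63.0, 63.6 and 64.0 CPM and at 52.4, 49.1 and 53.0 CPM (-0.30 ± 0.05, adjusted p = 0.00409), and *Gclc* was lower by 0.24 (1 of 6 fits).

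**Figure D4:**
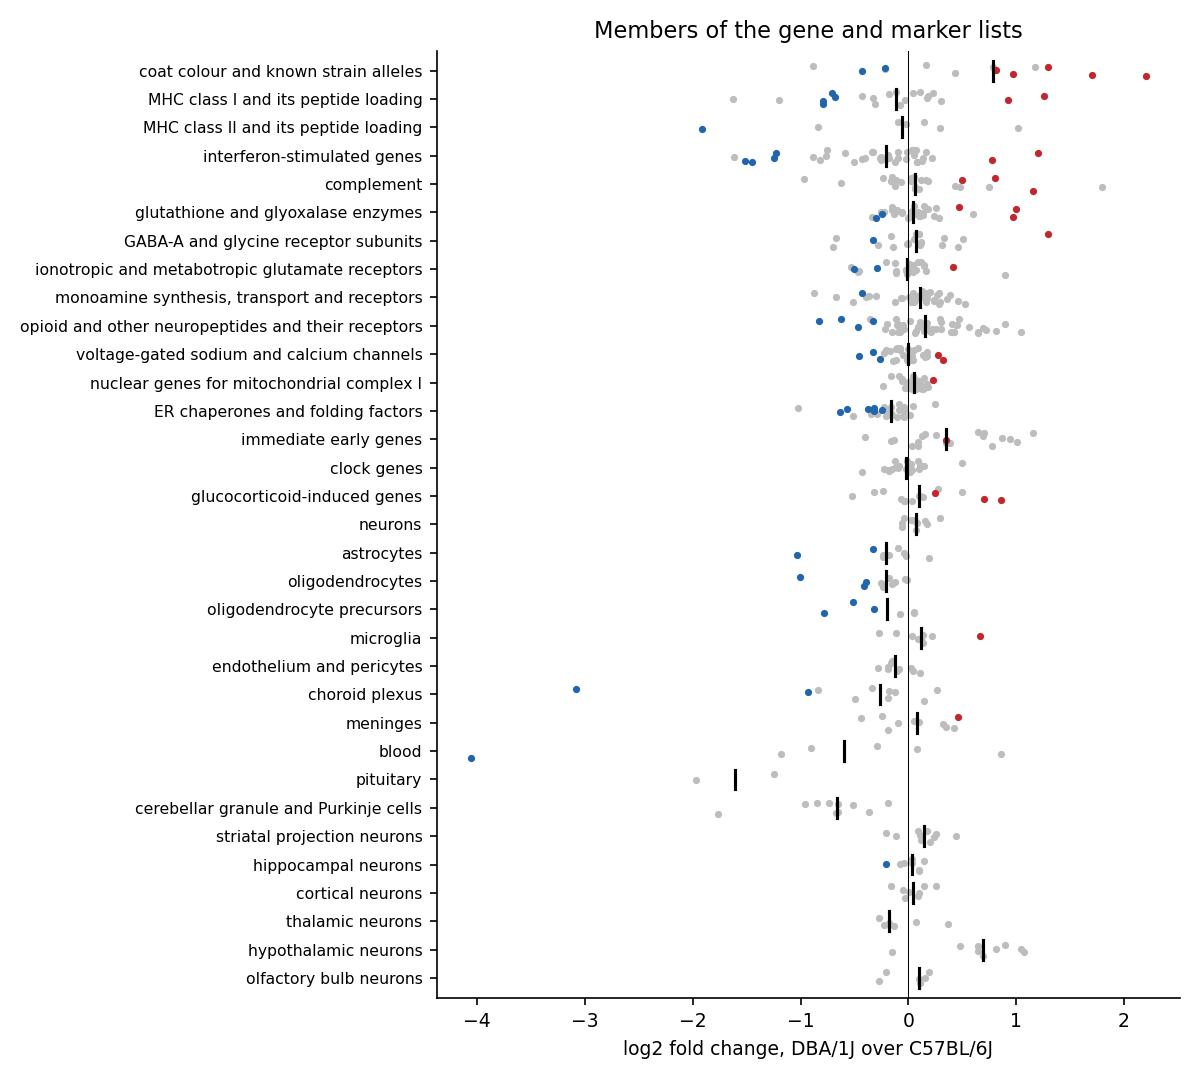
Log2 fold change, DBA/1J minus C57BL/6J (x axis), of the members of the gene and marker lists (y axis, without the 3 genes of the chromosome 19 block), with 1 dot per gene, red for called higher, blue for called lower and grey for not called, and a black tick at the median of all tested members. Genes with at most 3 counts in total over the libraries of 1 strain are not drawn. The medians of most lists lie near 0, and the called members of the endoplasmic reticulum, oligodendrocyte and peptide receptor lists lie below it.

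Glial markers held most of the calls among the cell type lists. None of 11 neuronal markers was called. Of 10 oligodendrocyte markers 3 were lower (30.0%, against 7.2% over all genes) and the other 7 had negative values too (median -0.203). *Mog*, a protein of the outer myelin surface, was at 77.9, 68.8 and 64.2 CPM in C57BL/6J and at 38.4, 29.1 and 37.4 CPM in DBA/1J (-1.01 ± 0.11, adjusted p = 2.92e-04). *Ermn* (-0.39, 2 of 6 fits) and *Mobp* were the others, and the 10 markers summed to 6894 to 8068 CPM in C57BL/6J and 5878 to 6648 CPM in DBA/1J, without overlap. In bulk tissue, fewer cells of a type and less RNA per cell cannot be told apart. Of 6 markers of oligodendrocyte precursors, *Olig1* (-0.52 ± 0.07), *Olig2* (-0.78 ± 0.10) and *Cspg4* (-0.32, 2 of 6 fits) were lower (50.0%, beside the same 7.2%). *Olig2*, the transcription factor of the lineage, was at 24.8, 22.4 and 23.8 CPM and at 14.6, 11.99 and 14.7 CPM.

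Of 10 astrocyte markers *S100b*, *Glul* and *Aqp4*, the water channel of the endfeet (-0.33, 3 of 6 fits), were lower (30.0%, against 7.2% over all genes), while *Slc1a2* (-0.04), *Gfap* (-0.09) and *Aldh1l1* (-0.18) were not called. The values were negative in 9 of the 10, with a median of -0.206. Without *S100b* the markers summed to 6577 to 7140 CPM in C57BL/6J and 5676 to 5923 CPM in DBA/1J, without overlap. *Glul* alone held 1454 to 1673 CPM of these sums in C57BL/6J and 738 to 780 CPM in DBA/1J. In the choroid plexus list of 10 genes *Kcne2*, a potassium channel subunit, was at 3.39, 4.32 and 3.04 CPM and at 0.232, 0.413 and 0.633 CPM (-3.08 ± 0.31), and *Clic6* was lower by 0.93 ± 0.17, while *Ttr*, the most abundant gene of that tissue, was at 356 and 327 CPM (adjusted p = 0.798). *Aldh1a2* of the meninges (0.46) and *Prox1* of the hippocampus (-0.21) were the only calls in their lists, and each was called in at most 1 of 6 fits that left out 1 library. The microglia list held *Fcrls* under that symbol, which was not matched to the files, so its counts cover the other 9 genes, of which *Aif1* was higher (0.66, at most 1 of 6 fits). As *Fcrl2*, given above, it was lower in all 6 fits that left out 1 library, so the microglia markers were called in both directions. No marker of endothelium or of cerebellar, striatal, cortical, thalamic, hypothalamic or olfactory bulb neurons was called, nor either of 2 pituitary markers, and *Hba-a2* was the single call among 6 blood markers. The 10 cerebellar markers had a median of -0.662 with all libraries and -0.223 without DBA/1J replicate 1, and the hypothalamic markers 0.693 and 0.285.

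Genes that differed lay near one another in places. In windows of 10 neighbouring tested genes, which overlap each other, 40.1% held no called gene and 0.0257% held 9. One window with 9 lay at chr16:91014037-91646972 (GRCm38). It held *Olig1* and *Olig2* and the cluster of cytokine receptor subunits, of which *Ifngr2* (-0.68), *Il10rb* (-0.52) and *Ifnar1* (-0.27) were lower and *Ifnar2* was not called (0.13). *Dnajc28* in the same window fell by 1.69, from 13.4 to 4.14 CPM, and *Gart*, a purine synthesis gene, was higher (0.34). At chr4:137862237-138442265, 8 of 10 genes were called and all 8 were lower, among them *Hp1bp3*, a heterochromatin protein gene at 222 and 132 CPM (-0.75 ± 0.05), *Sh2d5* (-0.94) and *Pink1*, the mitochondrial kinase gene of familial parkinsonism (-0.48).

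A stretch of chromosome 1, chr1:153503016-155146814, held *Glul*, *Cacna1e* and *Rgs8* and 3 other lower genes among 10. *Rgs8*, a regulator of G-protein signalling of Purkinje cells, was at 345, 313 and 271 CPM in C57BL/6J and at 86.3, 193 and 192 CPM in DBA/1J, lowest in DBA/1J replicate 1, and without that library it was still lower (-0.70, adjusted p = 7.74e-04). Around the chemokine genes at chr4:41769467-42773991, 9 of 10 genes were called. *Ccl21d* had no count in DBA/1J, *Ccl19* and *Ccl21a* were higher, and the other 6 were unnamed gene models that were lower. By chromosome the share called was highest on chromosomes 4 (16.1%), 1 (14.3%) and 17 (14.1%) and lowest on X (6.41%) among the autosomes and X.

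The differences were read again in animals that the wild-type comparison did not hold. *Rorb* h5 brains, on DBA/1J, were compared with *Rorb* h1 brains, on C57BL/6J, and 2452 of 17586 genes (13.9%) were called, 892 higher (5.07%) and 1560 lower (8.87%). These groups also differ in the *Rorb* allele, which cannot be told apart from the strain in this comparison. Of the 1952 genes called between the wild types, 1924 were tested in the mutants, and 1895 (98.5%) had the same direction, against 69.2% of 15252 genes that were not called. Of the 1924, 1398 (72.7%) were called in the same direction and 0 in the opposite one, which is 58.1% of the 2406 genes called in the mutants and tested in both. Among the genes over 2-fold, 482 of 562 were called again. The 3 h5 brains held the cerebellum, with *Gabra6* at 101 to 120 CPM.

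Several of the genes above are given here with their h1 and h5 means and log2 fold change. *S100b* was at 128.9 ± 17.6 CPM (SD, n = 3) in h1 brains and had no count in the 3 h5 brains. *Stab2* was at 0.5995 and 75.1 CPM (6.96), *Pttg1* at 14.98 and 0.541 CPM (-4.75), *Neat1* at 96.0 and 16.4 CPM (-2.54) and *Gabra2* at 65.3 and 144 CPM (1.14). *Glul* was at 1493 and 663 CPM (-1.17), *Mog* at 73.3 and 34.8 CPM (-1.07), *H2-K1* at 17.5 and 11.3 CPM (-0.63) and *H2-D1* at 37.9 and 83.3 CPM (1.14). Of the 84 processed pseudogenes that were higher in the wild types, 81 were higher in h5. *C3* was not, at 2.82 and 2.27 CPM (-0.31, adjusted p = 0.530), and neither were *Scn3b* (0.11), *Cacna1h* (0.01) and *Dnajb11* (-0.05) called. *Rorb* itself was higher in h5 (1.08).

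**Figure D5:**
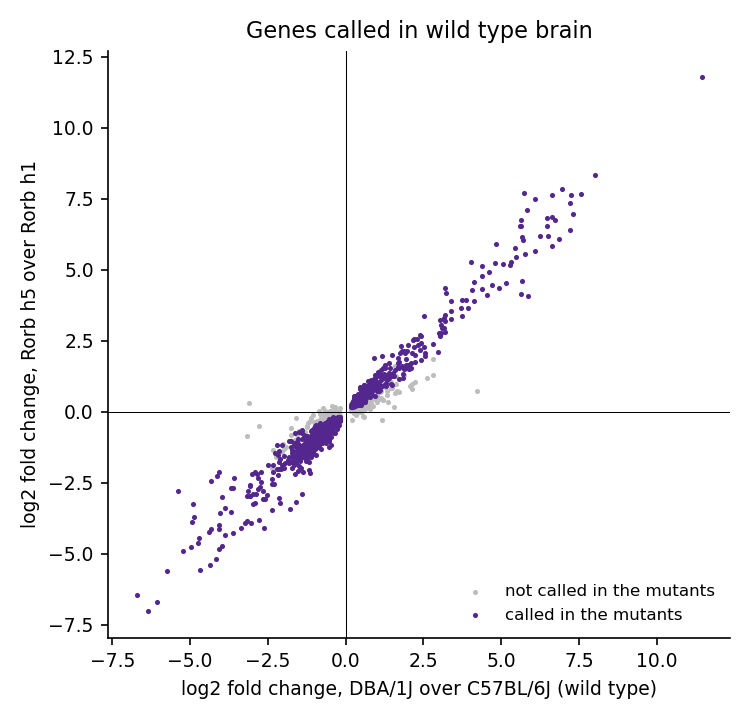
Log2 fold change of the genes called between wild-type brains (x axis, DBA/1J minus C57BL/6J) against that of the same genes between mutant brains (y axis, *Rorb* h5 on DBA/1J minus *Rorb* h1 on C57BL/6J), with 1842 genes drawn and purple points for those also called in the mutants. Genes with 3 counts or fewer in total over the libraries of 1 group are left out. The points lie along the diagonal, and of all 1924 genes tested in both 1895 have the same direction.

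In the spinal cord of the same 6 wild-type mice 3687 of 17318 genes (21.3%) were called, 1480 higher (8.55%) and 2207 lower (12.7%). Brain and spinal cord shared their animals and are set side by side only. *S100b* was at 480 CPM in C57BL/6J spinal cord and 0.00787 CPM in DBA/1J. In a fit of both tissues with the animal as a block, the strain difference itself differed between brain and spinal cord for 44 of 18810 genes (0.234%).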

How the data were processed

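RNA of brain hemisections was taken from 3 C57BL/6J and 3 DBA/1J wild-type mice. Messenger RNA was selected by poly(A), sequenced as paired ends, trimmed with Trim Galore, aligned with STAR to GRCm38 and quantified by the authors with RSEM. The deposited expected counts give, for each gene, the fragments the authors estimated with RSEM, and 5.10% of them were not whole in these 6 libraries. The deposited TPM values are those estimates scaled by the authors for transcript length and depth, and the transcript lengths (in bases) were deposited with them. The gene annotation version and the strandedness of counting are not given in the sources used here, so reads of antisense or overlapping genes were not told apart.

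Expected counts were rounded and tested with edgeR 4.0.16 in R 4.3.3 (TMM, filterByExpr, quasi-likelihood test, Benjamini-Hochberg adjusted p below 0.05), without covariates. Every adjusted p in the text comes from it unless DESeq2 is named. For genes at 3 counts or fewer per library in 1 strain, the folds given as "at least" were computed against that floor. No log2 fold change was kept where the libraries of 1 strain held 3 counts or fewer in total. The floor covers counting error only. Symbols were joined to 41407 of 45706 identifiers, and 31375 have a GRCm38 position in RefSeq by symbol. Copies were matched to parent genes with blastn 2.17.0 on GENCODE transcripts (GRCm39) at 85% identity and 80% coverage or more. The script was tested on simulated counts of 17368 genes, of which 200 were changed. At a log2 change of 0.5, edgeR recovered 44.5% of the changed genes, and 11.9% of its calls were false. At a log2 change of 1 it recovered 92%, and 10.7% of its calls were false. Both false shares were above the threshold of 0.05 on the adjusted p.

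Genes were named by these rules: the 12 largest changes each way among called genes with a proper symbol, at least 5 CPM and strains that did not overlap, the 10 smallest p, the 10 highest levels, *Rorb*, and members of the gene and marker lists. Copy families, neighbours of *S100b*, windows and genes whose TPM and counts differed were chosen after their values were seen. The members and lists were chosen with earlier results of these data known. Alternatives were DESeq2 1.42.0 (the tool of the authors), its size factors, no filter, a filter of 1 CPM, a change beyond 1.5-fold, sex, the replicate number as a block, a fit of 7 brain groups and leaving out each library. Summing copies and leaving out the most counted identifier were added after seeing the data. In all, 30 of the 66 libraries were used. Cortex, hippocampus and cerebellum libraries were not used here. The results of a few genes are not reported here.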

Additional observations from a re-analysis of the deposited data

Results flagged for a closer look

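The strain difference in 5 named genes differed between brain and spinal cord of the same mice, by the test of the interaction with the animal as a block. *Cfap54* was higher in DBA/1J by 1.82 on the log2 scale in brain and by 0.79 in spinal cord, where it was at 7.87, 8.84 and 9.26 CPM in C57BL/6J and at 13.1, 15.5 and 16.4 CPM in DBA/1J. The difference of the log2 fold changes was 1.03 (adjusted p = 0.0159). *Neat1* was lower by 2.36 in brain and by 2.86 in spinal cord, where it went from 304 ± 4.62 to 41.9 ± 1.88 CPM (SD, n = 3), a difference of 0.50 (adjusted p = 0.0313). *Prmt2*, next to *S100b*, was higher by 0.19 in brain and by 0.67 in spinal cord, a difference of -0.48 (adjusted p = 0.0288).

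Both other genes belong to MHC class II. *H2-Ab1*, a class II beta chain, was not called in brain, at 1.25 CPM in C57BL/6J and 1.17 CPM in DBA/1J, while in spinal cord it was at 0.311, 0.142 and 0.199 CPM in C57BL/6J and at 1.63, 0.757 and 1.94 CPM in DBA/1J, a difference of -2.80 (adjusted p = 0.0289). *Cd74*, the invariant chain, was at 2.88 and 3.21 CPM in brain and at 0.764 and 3.47 CPM in spinal cord, a difference of -1.94 (adjusted p = 0.0267). The 6 spinal cords did not overlap between the strains in either gene. Of the 6 fits that left out 1 mouse, *Cfap54* was called in 3, *H2-Ab1* and *Cd74* in 2 and *Neat1* and *Prmt2* in 1, with adjusted p up to 0.145, 0.170, 0.193, 0.209 and 0.199. Without the animal as a block *Cd74* was not called (adjusted p = 0.0645).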

How the results depend on the processing

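Of the 1952 genes called between the wild-type brains, counts under 8 alternatives stayed within 1.5 times, from 1310 with the replicate number as a block and 1766 with sex as a covariate to 2270 without a low-count filter, and DESeq2 gave 2255. A change tested beyond 1.5-fold left 473, and a single fit of 7 brain groups gave 3017. Leaving out 1 library gave 1269 to 1709, the lowest without C57BL/6J replicate 2. Summing copies into their parents gave 1807, and 7 parents then turned to a positive log2 difference, none of them called: *Hspa8* 0.014, *Fabp5* 0.137, *Hmga1* 0.016, *Nup35* 0.27, *Phb1* 0.059, *Rpl3* 0.046 and *Rps7* 0.169. The mutant comparison gave 4772 calls in place of 2452 against the mean of *Rorb* h1, h2, h3 and h4, and 1631 to 2391 without 1 library (1631 without h5 replicate 1). The h2, h3 and h4 mice differ from h1 in background as well as in allele. The 44 calls of strain by tissue became 104 by DESeq2 and ranged from 3 to 54 without 1 mouse, with 7, 3 and 13 without C57BL/6J replicates 1, 2 and 3. The causes of these moves were not tested. The correlations of same-numbered libraries were -0.148, -0.112 and -0.32, so the replicate numbers did not pair the mice. The next counts cover 173 genes: those named by size, level or p, *Rorb*, called members of the lists, and parents of families with a copy called higher. Other genes given in the text are outside this set, and of these *Prmt2* was not called by DESeq2 (adjusted p = 0.071). Of the 173 genes, 0 lost the call under DESeq2, 23 with the block, 9 with sex, 77 beyond 1.5-fold and 18 to 27 without 1 library. Of 160 that could be refitted with copies summed, 13 lost it and 7 reversed. Of the 44 among them named by size, level or p and *Rorb*, 0 lost the call under DESeq2, 1 with the block, 1 with sex, 10 beyond 1.5-fold and 1 to 3 without 1 library, and of 31 refitted with copies summed, 1 lost it and 1 reversed. Genes near the floor of 3 counts have no defined fold.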

Other observations

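The clustered protocadherins, neuronal surface proteins whose variable exons share constant exons, were mostly lower in DBA/1J where they were called. Of 58 tested, 12 were lower and 1 was higher (22.4% called, against 11.2% over all genes), with a median of -0.13, and all 13 belonged to the gamma cluster. *Pcdhga5* was at 18.6, 17.9 and 17.0 CPM in C57BL/6J and at 4.55, 6.30 and 5.18 CPM in DBA/1J (-1.74 ± 0.12, adjusted p = 1.3e-05), and in the mutants it differed by -1.76. *Pcdhga3* was lower by 0.97 ± 0.09, and *Pcdhga9*, the exception, was higher by 0.48 (called in 2 of 6 fits that left out 1 library). RSEM divides the reads of the shared exons among these genes.

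Other groups of near-identical genes differed in both directions. On chromosome 17, *Dynlt1a*, a dynein light chain gene, fell by 2.19, while its relatives *Dynlt1b* (1.49) and *Dynlt1c* (1.11) and *Tmem181b-ps* beside them were higher, the last from 62.2, 59.5 and 61.9 CPM to 183, 214 and 192 CPM (1.68 ± 0.06). In a row of zinc-finger genes on chromosome 4, *Zfp982* fell by 5.75 and *Zfp991* by 1.12, and *Zfp992* was higher by 1.93. On chromosome 1, *Fcer1g*, the signalling chain of Fc receptors, was lower by 1.43 ± 0.21 and *Fcgr3* by 0.99 ± 0.17, *Adamts4*, a protease of oligodendrocytes, by 0.91 ± 0.08, and *Gas5*, a non-coding RNA that hosts small nucleolar RNAs, by 1.17 ± 0.08. These genes and families were chosen after their values were seen.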
